A study of Mus musculus with 6 samples.

Results

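The ligands and receptor chains of the interleukin 6, 12 and 27 family were compared between tumors that received adoptive cell transfer (ACT) with IL-2 and tumors that received it with NKTR-214. The members were 10 genes found by symbol among the 21358 entries of the deposited expression table. They were the ligand genes Il6, Lif and Osm, the ligand subunit genes Il27 and Ebi3, and the receptor chain genes Il6ra, Il6st, Osmr, Il12rb1 and Il12rb2. The tumors grew from B16-F10 cells, a line of mouse melanoma in which the antigen gp100 is present, in C57BL/6 mice of 6 to 8 weeks of age. Mice were irradiated with 500 cGy and, a day later, once their tumors measured at least 150 mm3, were given pmel-1 Thy1.1+ splenocytes (CD8 T cells from this strain recognise gp100 through a transgenic receptor), so both groups share the irradiation and the transferred cells. The ACT + IL-2 group (3 mice) then received IL-2 (0.4 mg/kg) once a day for 3 days in each 9-day cycle. The ACT + NKTR-214 group (3 mice) received NKTR-214, an IL-2 that carries releasable polyethylene glycol chains, as a single dose of 0.8 mg/kg per cycle. Tumors were taken whole at day 12, 1 library per mouse, so the doses and schedules differ along with the molecule, as does the route (intravenous for NKTR-214, intraperitoneal for IL-2).

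Cytokines of this family are recognised by pairs of receptor chains that carry no enzyme of their own and rely on bound JAK kinases to switch on STAT transcription factors. IL-6, LIF and oncostatin M all signal through gp130, the product of Il6st, together with a further receptor chain. IL-27 is made of the subunits p28 (Il27) and EBI3 and signals through gp130 and the chain encoded by Il27ra. IL-12 is read by IL-12Rβ1 and IL-12Rβ2, encoded by Il12rb1 and Il12rb2, which activate STAT4 in T cells and NK cells and favour interferon gamma production. In tumors, gp130 cytokines are made by myeloid cells, stromal cells and activated T cells and act mainly through STAT3.

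The 10 members were higher in ACT + NKTR-214 and 0 were lower, at a Benjamini-Hochberg adjusted p under 0.05 from limma on log2(FPKM + 1). FPKM counts the fragments of a gene relative to its exon length and to the mapped fragments of the library. Over the 14172 genes tested, those with a mean of at least 0.1 FPKM, 20.7% were called higher and 8.28% lower. In 9 of the 10 members each ACT + NKTR-214 tumor lay above each ACT + IL-2 tumor, which held for 27.1% of all genes tested. The median log2 fold change was 0.95 over the members and 0.05 over all genes tested. The largest differences among the members were those of Il12rb2, Lif and Osm. The calls of Il12rb2, Lif, Osm, Il12rb1, Il6st and Osmr (6 members) stood in each of the 9 other ways of processing and each of the 6 fits that left out 1 tumor. Whole-tumor RNA was measured, so more cells of a type and more RNA per cell cannot be told apart.

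The values were exact enough to show whole reads. Taking each gene's FPKM values as multiples of what 1 read is worth gave whole reads in all 6 libraries for 98.5% of the genes tested, within 0.03 of a read, and a depth of 20.9 to 24.6 M mapped reads per library. The reads recovered in these genes were 40.2% of the depth of ACT + IL-2 replicate 2 and 46.2% to 51.3% in the other libraries. Genes with more reads than a set limit could not be recovered, so this share covers only part of the reads in listed genes. The FPKM values of ACT + IL-2 replicate 2 had the lowest sum. Fitting without that tumor left 6 members called, while the log2 fold changes of the 4 others were 0.87 for Il6ra, 0.97 for Ebi3, 0.67 for Il27 and 0.37 for Il6, against 0.97, 1.03, 0.65 and 0.41 with it. Among the ACT + IL-2 tumors, replicate 1 had the highest value of all 10 members, and among the ACT + NKTR-214 tumors replicate 2 had the highest value of 8. The same tumors had the highest sums of T cell, macrophage and fibroblast markers in their groups. A two-sided exact permutation test on 1 gene reaches at best p = 0.1 with 3 against 3 tumors, and limma gains its power by borrowing variance from the other genes. A fold change on the log2(FPKM + 1) scale understates the change of a gene with low values, and the ratio of group means is therefore given beside it for each member.

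**Figure D1:**
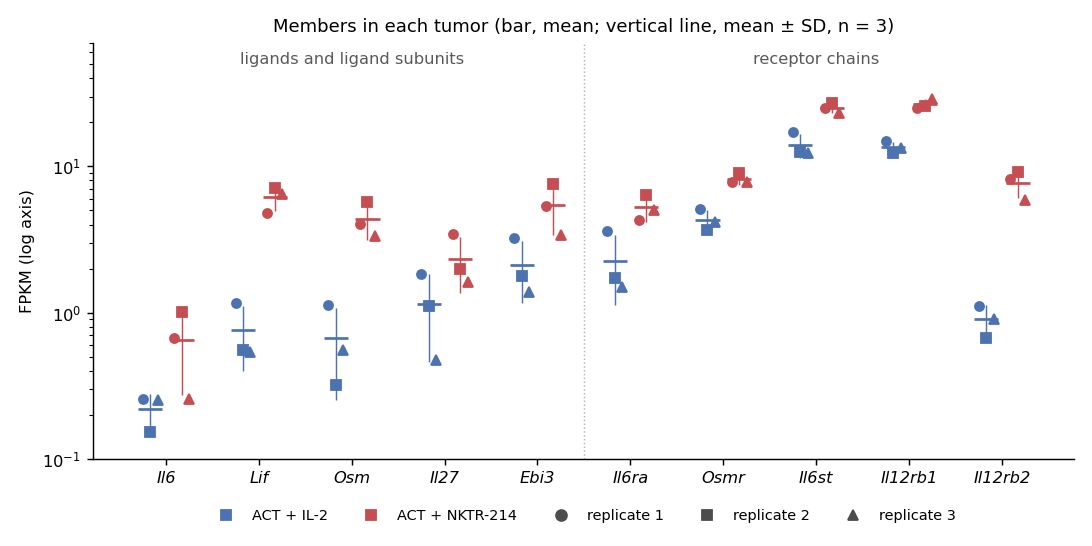
FPKM of the 10 members in each tumor on a log axis, with the 3 ACT + IL-2 tumors in blue and the 3 ACT + NKTR-214 tumors in red, marker shapes for replicates, horizontal bars for means and vertical lines for ± SD. The groups are widely apart in Lif, Osm and Il12rb2, touch in Il6 (0.257 against 0.258 FPKM) and overlap in Il27.

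Lif (chr11:4257557-4272514, + strand of GRCm38 in GENCODE vM21) encodes leukemia inhibitory factor, which binds gp130 with the LIF receptor. Its levels were 1.17, 0.555 and 0.541 FPKM in the ACT + IL-2 tumors (replicates 1, 2 and 3) and 4.81, 7.13 and 6.48 FPKM in the ACT + NKTR-214 tumors (replicates 1, 2 and 3). The lowest ACT + NKTR-214 tumor thus stood 4.11 times above the highest ACT + IL-2 tumor. These levels came from 49 to 121 reads against 514 to 753 reads. The group means differed 8.12-fold, and the log2 fold change was 2.03 with a standard error of 0.17 (limma, adjusted p = 5.83e-07).

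Osm (chr11:4236420-4241026, + strand) encodes oncostatin M, a cytokine of activated T cells and myeloid cells. It was measured at 1.12, 0.321 and 0.552 FPKM in the ACT + IL-2 tumors and at 4.02, 5.69 and 3.34 FPKM in the ACT + NKTR-214 tumors, in replicate order as throughout. Each ACT + NKTR-214 tumor was above each ACT + IL-2 tumor, of which replicate 2 was the lowest, with 14 reads. The means differed 6.54-fold, with a log2 fold change of 1.69 and a standard error of 0.19 (limma, adjusted p = 6.88e-06). Osm and Lif lie on the same strand with 16530 bases between them. Within 100000 bases around the pair, 4 other genes were tested, of which 0 were called higher and 1 was called lower (Sf3a1, a splicing factor subunit, at a log2 fold change of -0.66). The other neighbors, Rnf215, Ccdc157 and Tbc1d10a, had log2 fold changes of 0.24, 0.12 and 0.27 and did not pass the threshold.

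Il6 (chr5:30013114-30019981, + strand) encodes interleukin 6 and was the lowest of the 10 members in both groups. The ACT + IL-2 tumors gave 7, 4 and 6 reads, or 0.257, 0.153 and 0.251 FPKM. The ACT + NKTR-214 tumors gave 19, 28 and 7 reads, or 0.674, 1.01 and 0.258 FPKM. Replicates 1 and 2 of ACT + NKTR-214 were high, whereas replicate 3 held as many reads as ACT + IL-2 replicate 1 and stood above it in FPKM only through the depth of the libraries. For a count of 7, the exact 95% Poisson interval runs from 2.81 to 14.4 reads, and for the count of 28 from 18.6 to 40.5 reads. Such intervals cover counting error only. The means differed 2.93-fold, and the log2 fold change was 0.41 with a standard error of 0.13 (limma, adjusted p = 0.0331). Of the 6 fits that left out 1 tumor, 4 kept the call. Without ACT + NKTR-214 replicate 2 the log2 fold change was 0.25 (limma, adjusted p = 0.121), and without ACT + IL-2 replicate 2 it was 0.37 (limma, adjusted p = 0.184).

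The IL-27 subunits were both called higher, with different certainty. Ebi3 (chr17:55952640-55957022, + strand), whose product is also found in IL-35, was at 3.22, 1.79 and 1.39 FPKM in ACT + IL-2 and at 5.36, 7.56 and 3.41 FPKM in ACT + NKTR-214. The groups did not overlap, but the lowest ACT + NKTR-214 tumor exceeded the highest ACT + IL-2 tumor by a factor of only 1.06. The means differed 2.55-fold, and its log2 fold change was 1.03 with a standard error of 0.24 (limma, adjusted p = 0.00353), and the adjusted p was 0.0738 without ACT + IL-2 replicate 2. Il27 (chr7:126589010-126594941, - strand) was at 1.84, 1.11 and 0.473 FPKM in ACT + IL-2, from 31, 18 and 7 reads. In ACT + NKTR-214 it was at 3.43, 1.97 and 1.61 FPKM, from 60, 34 and 27 reads. The groups overlapped, since ACT + IL-2 replicate 1 stood above ACT + NKTR-214 replicate 3. The means of Il27 differed 2.05-fold, its log2 fold change was 0.65 with a standard error of 0.22 (limma, adjusted p = 0.0348), and 3 of the 6 fits that left out 1 tumor kept the call. Without ACT + IL-2 replicate 3 its log2 fold change was 0.41 and without ACT + NKTR-214 replicate 1 it was 0.43. Of the exon bases, 10.1% of Il27 are shared with Apobr and 23.4% of Ebi3 with Gm16712, and whether the counting used strand is not given in the sources used here. Apobr, which encodes a lipoprotein receptor, had a log2 fold change of 1.76.

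Il6st (chr13:112464070-112510086, + strand), the gene of the shared chain gp130, was among the most abundant members. It was at 17.1, 12.5 and 12.4 FPKM in ACT + IL-2 and at 24.9, 27.2 and 23.3 FPKM in ACT + NKTR-214, from 1411 to 3610 reads per library. All ACT + NKTR-214 tumors lay above the ACT + IL-2 tumors, of which replicate 1 was the highest. The means differed 1.79-fold, with a log2 fold change of 0.81 and a standard error of 0.15 (limma, adjusted p = 0.000874). Osmr (chr15:6813577-6874969, - strand), the chain that joins gp130 in the oncostatin M receptor, was at 5.10, 3.69 and 4.15 FPKM and at 7.75, 8.93 and 7.79 FPKM. The groups did not overlap here either. The log2 fold change was 0.79 with a standard error of 0.16 (limma, adjusted p = 0.00117), a 1.89-fold difference between means.

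Il6ra (chr3:89864059-89913196, - strand) encodes the chain that binds IL-6 itself. Its levels were 3.59, 1.73 and 1.49 FPKM in ACT + IL-2 and 4.29, 6.35 and 5.05 FPKM in ACT + NKTR-214. ACT + IL-2 replicate 1 stood well above the other two tumors of its group and close to the lowest ACT + NKTR-214 tumor. The means differed 2.31-fold, and the log2 fold change was 0.97 with a standard error of 0.21 (limma, adjusted p = 0.00246), and the adjusted p was 0.0578 without ACT + IL-2 replicate 2. With Gm42809 it shares 2.80% of its exon bases.

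The receptor chains of IL-12 were both higher, but by unequal amounts. Il12rb1 (chr8:70808449-70821424, + strand), the chain that the IL-12 and IL-23 receptors share, was at 14.8, 12.3 and 13.3 FPKM in ACT + IL-2 and at 25.1, 25.9 and 29.0 FPKM in ACT + NKTR-214. The values within each group lay close together and the groups were far apart. The means differed 1.98-fold, and its log2 fold change was 0.94 with a standard error of 0.14 (limma, adjusted p = 0.000117). Il12rb2 (chr6:67291318-67376188, - strand), the signaling chain that T cells add on activation, was at 1.11, 0.673 and 0.909 FPKM in ACT + IL-2. In ACT + NKTR-214 it reached 8.13, 9.09 and 5.92 FPKM, from 429 to 676 reads against 47 to 81 reads. The lowest of these tumors stood 5.32 times above the highest ACT + IL-2 tumor, the widest gap between the groups among the members. The means differed 8.59-fold, with a log2 fold change of 2.19, a standard error of 0.17 and a 95% confidence interval of 1.83 to 2.55 (limma, adjusted p = 2.24e-07). In GENCODE vM21, 40.04% of the exon bases of Il12rb2 are shared with Serbp1, an abundant gene of an RNA-binding protein. Serbp1 itself had a log2 fold change of -0.26 (limma, adjusted p = 0.242), and its levels ran from 59.0 to 74.8 FPKM in ACT + IL-2 and from 52.9 to 64.0 FPKM in ACT + NKTR-214.

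**Figure D2:**
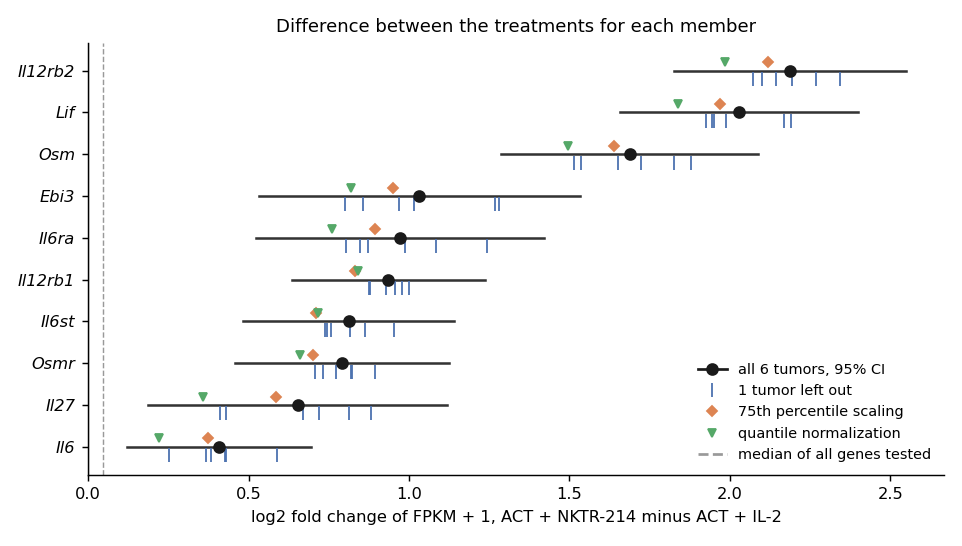
Log2 fold changes of FPKM + 1 of the members, ACT + NKTR-214 minus ACT + IL-2, with all 6 tumors (black point, line for the 95% confidence interval), with 1 tumor left out (blue ticks) and under other scalings (orange diamonds, 75th percentile; green triangles, quantile normalization). Il12rb2, Lif and Osm lie apart from the other members under each of these settings, and every value plotted is above the median of all genes tested (0.05).

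The promoters of 4 members are shown because they hold a motif of factors known to act on cytokine genes. RefSeq promoter windows (GRCm38.p6) were matched for 7 of the 10 members and not for Osm, Il27 and Il12rb1. The 250 bases before the start were searched on both strands for the STAT core TTCNNNGAA, the AP-1 site TGANTCA, the core of the interferon-stimulated response element (2 copies of GAAA with 2 bases between them) and the kappa B site. Of the 7 windows, 4 held at least 1 of these motifs, against 22.1% of 32851 promoter windows of the same length. By motif, the share of all windows was 7.02% for the STAT core, 6.75% for AP-1, 2.98% for the response element core and 7.25% for kappa B. The Il12rb2 window (chr6:67376189-67376438, - strand) held the STAT core at position -123 from the start. The Lif window (chr11:4257318-4257567, + strand) held AP-1 at -228 and kappa B at -178, the Il6 window (chr5:30012864-30013113, + strand) AP-1 at -249 and kappa B at -44, and the Ebi3 window (chr17:55952373-55952622, + strand) kappa B at -44. Capitals mark the motifs, which do not overlap, and each sequence reads 5′ to 3′ on the strand of its gene.
Il12rb2 promoter: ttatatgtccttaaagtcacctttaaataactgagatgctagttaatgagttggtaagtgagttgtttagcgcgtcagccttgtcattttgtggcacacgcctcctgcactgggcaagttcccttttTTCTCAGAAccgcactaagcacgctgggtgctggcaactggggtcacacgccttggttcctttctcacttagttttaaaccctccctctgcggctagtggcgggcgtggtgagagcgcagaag
Lif promoter: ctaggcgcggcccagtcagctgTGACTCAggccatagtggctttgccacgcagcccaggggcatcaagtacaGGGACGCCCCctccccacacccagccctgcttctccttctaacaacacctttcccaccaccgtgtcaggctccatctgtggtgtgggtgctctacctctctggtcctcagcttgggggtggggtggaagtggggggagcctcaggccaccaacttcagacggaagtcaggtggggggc
Il6 promoter: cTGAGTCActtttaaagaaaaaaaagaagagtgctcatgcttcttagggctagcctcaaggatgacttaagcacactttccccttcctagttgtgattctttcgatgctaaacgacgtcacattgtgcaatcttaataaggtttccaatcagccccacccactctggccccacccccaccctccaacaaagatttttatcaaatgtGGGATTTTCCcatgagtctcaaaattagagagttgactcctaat
Ebi3 promoter: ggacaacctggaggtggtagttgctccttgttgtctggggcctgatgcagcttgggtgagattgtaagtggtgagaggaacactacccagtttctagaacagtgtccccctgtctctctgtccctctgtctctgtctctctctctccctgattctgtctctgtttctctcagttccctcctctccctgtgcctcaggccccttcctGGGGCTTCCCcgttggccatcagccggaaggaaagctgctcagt
The windows of Il6ra, Il6st and Osmr held none of the 4 motifs. A match is a description of the letters and not of binding, and with 7 windows the share says little about the family.

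Since FPKM is per length, the levels of the members could be ordered within each group. The lengths recovered from the FPKM steps were far below the GENCODE vM21 exon bases for several members and near them for others. They were 3387 against 8642 bases for Il6ra and 4344 against 4350 for Lif. The order and the levels of ratios between genes thus hold for the deposited lengths. In ACT + IL-2 the order was Il6st, Il12rb1, Osmr, Il6ra, Ebi3, Il27, Il12rb2, Lif, Osm and Il6, from a mean of 14.0 to a mean of 0.220 FPKM. Neighbours in this order overlapped between tumors except at the steps from Il12rb1 to Osmr, from Osmr to Il6ra and from Osm to Il6. In ACT + NKTR-214 it was Il12rb1, Il6st, Osmr, Il12rb2, Lif, Ebi3, Il6ra, Osm, Il27 and Il6, from 26.7 to 0.646 FPKM. Here the non-overlapping steps were those from Il6st to Osmr and from Il27 to Il6. Il12rb2 moved from rank 7 to rank 4 and Lif from rank 8 to rank 5, while the shared chains gp130 and IL-12Rβ1 stayed at the top in both groups.

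Ratios of partner chains do not change when a library is multiplied by 1 factor. The ratio of Il12rb2 to Il12rb1 was 0.0752, 0.0546 and 0.0683 in the ACT + IL-2 tumors and 0.324, 0.351 and 0.204 in the ACT + NKTR-214 tumors. The groups did not overlap, and Il12rb1 remained the more abundant chain in every tumor. The means were 0.0660 ± 0.0105 and 0.293 ± 0.0783 (SD, n = 3 each), a log2 difference of 2.12 (exact two-sided permutation p = 0.1, the smallest possible, and 0.5 after adjustment over 5 ratios). The other 4 ratios overlapped between the groups. They were Osmr to Il6st at 0.310 ± 0.0225 and 0.325 ± 0.0118 (exact p = 0.4), Il6ra to Il6st at 0.156 ± 0.0476 and 0.208 ± 0.0316 (exact p = 0.2), Il12rb1 to Il6st at 0.975 ± 0.104 and 1.07 ± 0.156 (exact p = 0.5) and Ebi3 to Il27 at 2.10 ± 0.726 and 2.51 ± 1.19 (exact p = 0.7), with SD and n = 3 each. Osmr and Il6st kept the narrowest range of ratio over the 6 tumors, from 0.295 to 0.335.

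**Figure D3:**
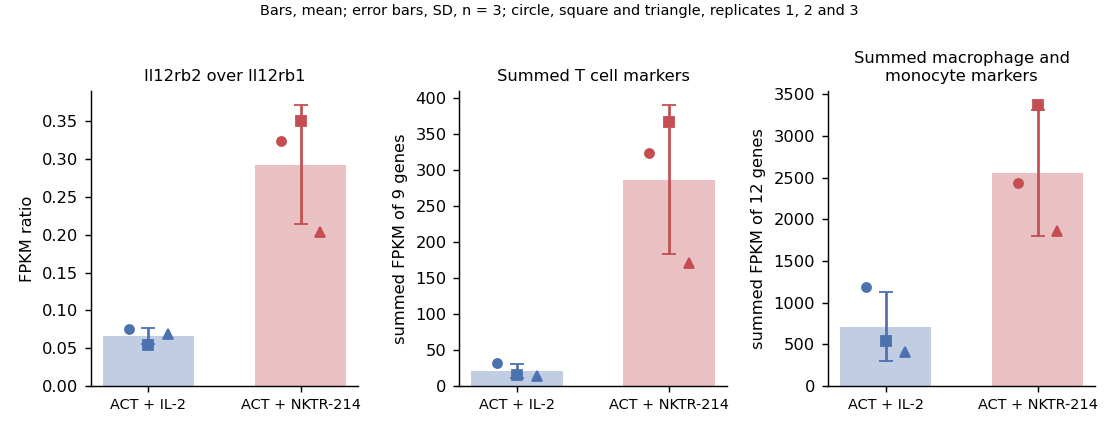
Left, the FPKM ratio of Il12rb2 to Il12rb1. Middle and right, summed FPKM of 9 T cell and 12 macrophage and monocyte markers. Bars are means, error bars SD (n = 3) and points single tumors. In all panels the 3 ACT + NKTR-214 tumors lie above the 3 ACT + IL-2 tumors, and ACT + NKTR-214 replicate 3 is the lowest of its group.

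Markers of the cells that can express these genes differed between the groups as well. All 9 T cell markers (among them Cd3e, Cd8a and Cd2) were called higher, and their summed level was 13.8 to 32.1 FPKM in ACT + IL-2 and 170.2 to 365.9 FPKM in ACT + NKTR-214. All 12 macrophage and monocyte markers (among them Lyz2, C1qa and Csf1r) were called higher, with sums of 405 to 1181 and 1864 to 3366 FPKM. Without ACT + IL-2 replicate 2, the call held for 6 of these 12. Higher calls were also made for 5 of 5 tested neutrophil markers (4 without ACT + IL-2 replicate 2), with sums of 4.11 to 9.44 and 22.3 to 50.3 FPKM. Ly6g was listed at 0 in 5 of 6 tumors. Of 9 dendritic cell markers, 6 were called higher (sums of 17.4 to 32.3 and 37.6 to 59.5 FPKM), but 3 with quantile normalization and 2 without ACT + IL-2 replicate 2. Of 10 fibroblast and pericyte markers, 7 were called higher (235 to 695 and 753 to 1374 FPKM), including Thy1, which T cells also express. This count was 4 with 75th percentile scaling or quantile normalization and 1, Thy1 itself, without ACT + IL-2 replicate 2. The sums of the other 9 markers, taken without Thy1 after seeing the data, overlapped between the groups at 224 to 666 and 592 to 1182 FPKM. Of 5 NK cell markers 3 were called higher (Eomes, Klrb1c and Klre1). Ncr1 and Klra8 had log2 fold changes of 0.07 and 0.006 and did not pass the threshold. Of 6 endothelial markers 1 was called higher, and 0 without ACT + IL-2 replicate 2. B cell markers were low, with sums of 0.850 to 1.97 and 0.960 to 1.54 FPKM. Ms4a1 was listed at 0 in 4 of 6 tumors, and 0 of 2 tested B cell markers were called. Keratinocyte markers were low and 0 of 2 tested were called. The melanoma genes Mitf, Tyr, Tyrp1 and Sox10 were called lower (4 of 6 markers, and 6 of 6 with 75th percentile scaling, with quantile normalization or without ACT + IL-2 replicate 2), with sums of 4172 to 5369 and 2058 to 2923 FPKM, so melanoma markers were abundant in all 6 tumors. The part of these differences in the values of the members was not tested.

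The members were also set beside the marker sums of the same tumor, and the direction depended on the cell type. Abundant genes weigh most in such a sum. Among the 12 macrophage and monocyte markers the ratio of means ran from 1.84 (Adgre1) to 19.1 (Ly6c2), and Lyz2, the most abundant, had 4.62. Lif was 0.0991% to 0.133% of the summed macrophage and monocyte markers in ACT + IL-2 and 0.197% to 0.347% in ACT + NKTR-214, with no overlap. Il12rb2 was 0.0942% to 0.224% and 0.270% to 0.334% of the same sum, and Osm was 0.0599% to 0.136% and 0.165% to 0.179%. These were the members that exceeded the macrophage sum, by log2 differences of 1.14, 1.14 and 0.90 for Lif, Il12rb2 and Osm. The other 7 members lagged behind the macrophage sum, by -0.58 for Il6 to -1.11 for Il6st, and among them Il6, Il27 and Il12rb1 overlapped between the groups. Against the summed fibroblast and pericyte markers these 7 members all overlapped, and Il6, Ebi3 and Il6ra differed by -0.0034, -0.015 and -0.086 on the log2 scale. Without Thy1 in that sum, these 3 differences were 0.18, 0.17 and 0.10, and the 7 members still overlapped. Against the endothelial sum all 10 members were higher on average, by log2 differences of 0.15 for Il6st to 2.40 for Il12rb2, with no overlap for Lif, Osm, Il12rb2, Il6ra and Ebi3. Against the dendritic cell sum, Lif, Osm and Il12rb2 exceeded it without overlap (1.99, 1.75 and 2.00), and the other 7 overlapped, at -0.25 for Il6st to 0.27 for Il6. Against the neutrophil sum, Lif was higher without overlap (0.43), Osm and Il12rb2 overlapped (0.19 and 0.44), and the other 7 were lower on average, by -1.29 for Il6 to -1.81 for Il6st. Relative to the summed T cell markers all 10 members were lower on average in ACT + NKTR-214, by -0.72 for Il12rb2, -0.73 for Lif and -0.97 for Osm and by -2.45 to -2.98 for the other 7. For Il12rb2 this share was 3.46% to 6.59% in ACT + IL-2 and 2.48% to 3.48% in ACT + NKTR-214, and the groups overlapped. Il12rb1, in contrast, was 46.1% to 96.4% of the T cell sum in ACT + IL-2 and 7.08% to 17.1% in ACT + NKTR-214.

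Of 16 other ligands and receptors of the family, 11 were tested, 4 were called higher and 1 was called lower, with a median log2 fold change of 0.29. With quantile normalization 2 were called higher and 2 lower, and without ACT + IL-2 replicate 2 the counts were 2 and 1. Il27ra, the IL-27 receptor chain, was at 1.21, 0.623 and 0.520 FPKM in ACT + IL-2 and at 8.73, 9.15 and 4.69 FPKM in ACT + NKTR-214 (log2 fold change 2.23, limma adjusted p = 1.47e-06). It showed no overlap, and its difference was of the size seen in Il12rb2. Clcf1, a gp130 ligand of the ciliary neurotrophic factor branch, was at 1.06, 0.690 and 0.572 FPKM and at 4.09, 5.20 and 2.74 FPKM (log2 fold change 1.48, limma adjusted p = 1.40e-05). Lifr, the chain that LIF needs beside gp130, rose by a log2 fold change of 0.50 from a low level (0.787 to 1.66 against 1.87 to 2.30 FPKM, limma adjusted p = 0.020), and Il11ra1 by 0.48 (limma adjusted p = 0.0199). Both calls were kept in 4 of the 6 fits that left out 1 tumor. Cntfr, the receptor chain of ciliary neurotrophic factor, went the other way, at 13.2 to 18.6 FPKM in ACT + IL-2 and 5.85 to 7.65 FPKM in ACT + NKTR-214 (log2 fold change -1.03, limma adjusted p = 0.000194). The ligand genes of IL-12 and IL-23 were low in both groups. Il12a was listed at 0 in 4 of 6 tumors and was not tested. Il12b was at 0.174 to 0.535 FPKM and 0.151 to 0.323 FPKM, with a log2 fold change of -0.07 (limma, adjusted p = 0.663) and a 95% confidence interval of -0.30 to 0.16. Il23a was at 0.0704 to 0.154 FPKM and 0.186 to 0.393 FPKM, with no overlap and a 2.92-fold ratio of means, and its log2 fold change was 0.24 (limma, adjusted p = 0.0547). Il11, Ctf1 and Cntf did not pass the threshold.

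The JAK kinases and STAT factors used by these receptors did not move as a block. Of 12 genes of the relay and its inhibitors, 7 were called higher and 0 lower, with a median log2 fold change of 0.64. Stat4, the factor downstream of IL-12, was at 1.20, 0.827 and 0.740 FPKM in ACT + IL-2 and at 9.21, 9.71 and 4.08 FPKM in ACT + NKTR-214. It had the largest difference of the 12, with a log2 fold change of 2.10 (limma, adjusted p = 5.94e-06). The kinases Jak1, Jak2 and Tyk2 had log2 fold changes of 0.87, 0.64 and 0.63, and the inhibitors Socs1, Socs3 and Ptpn6 had 0.87, 0.83 and 0.82, all past the threshold. Without ACT + IL-2 replicate 2, the calls of Socs3 and Ptpn6 were lost (limma, adjusted p = 0.0682 and 0.0577), which left 5 of the 12. Stat3 did not pass it. Stat3 was at 61.4 to 75.8 FPKM in ACT + IL-2 and 66.0 to 73.3 FPKM in ACT + NKTR-214, with a log2 fold change of 0.03 and a 95% confidence interval of -0.29 to 0.36 (limma, adjusted p = 0.895).

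Genes known to respond to the family's STAT factors were then read from lists chosen with earlier results of these data known, so that their counts are descriptions. Of 12 genes of the IL-12 and STAT4 response, 12 were called higher (11 without ACT + IL-2 replicate 2, where Hlx was lost), with a median log2 fold change of 1.98. The largest differences were those of Gzmb (granzyme B, 4.79), Il18rap (2.74) and Il18r1 (2.72), and the smallest those of Hlx (0.84), Furin (1.20) and Gadd45b (1.30). Ifng, the cytokine that IL-12 induces in T cells and NK cells, had a log2 fold change of 1.63. Activated T cells also express many of these genes whatever the cytokine. Of 18 genes of the STAT3 response, 15 were called higher (13 without ACT + IL-2 replicate 2, where Socs3 and Hp were lost) and 0 lower, with a median of 1.56. They were led by Serpina3n (2.97), Lcn2 (2.00) and Pim1 (1.90), and Socs3 (0.83), Cebpd (1.13) and Icam1 (1.29) had the smallest differences among those called. Myc, Bcl6 and Mcl1 did not pass the threshold, with log2 fold changes of 0.29, 0.30 and 0.48. Several of this list, such as Lcn2, Fgl2 and Saa3, are also expressed by myeloid cells.

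Of 12 genes of the IL-27 response, 5 were called higher (3 without ACT + IL-2 replicate 2), with a median log2 fold change of 0.20. These were Ly6a (1.61), Cd274 (1.26), Socs1 (0.87), Irf7 (0.77) and Irf8 (0.53). Irf7 and Irf8 were lost without ACT + IL-2 replicate 2. Irf8 kept its call in only 2 of the 6 fits that left out 1 tumor. Cd274 encodes the checkpoint ligand PD-L1. The interferon-responsive genes Irf1, Gbp2, Gbp3, Gbp5, Isg15, Ifit3 and Tap1 had log2 fold changes of -0.39 (Ifit3) to 0.25 (Tap1) and none passed the threshold in limma. Irf1, for example, was at 61.3 to 83.9 FPKM in ACT + IL-2 and 60.3 to 74.5 FPKM in ACT + NKTR-214. Socs1 and Socs3 stand in more than one of these lists.

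**Figure D4:**
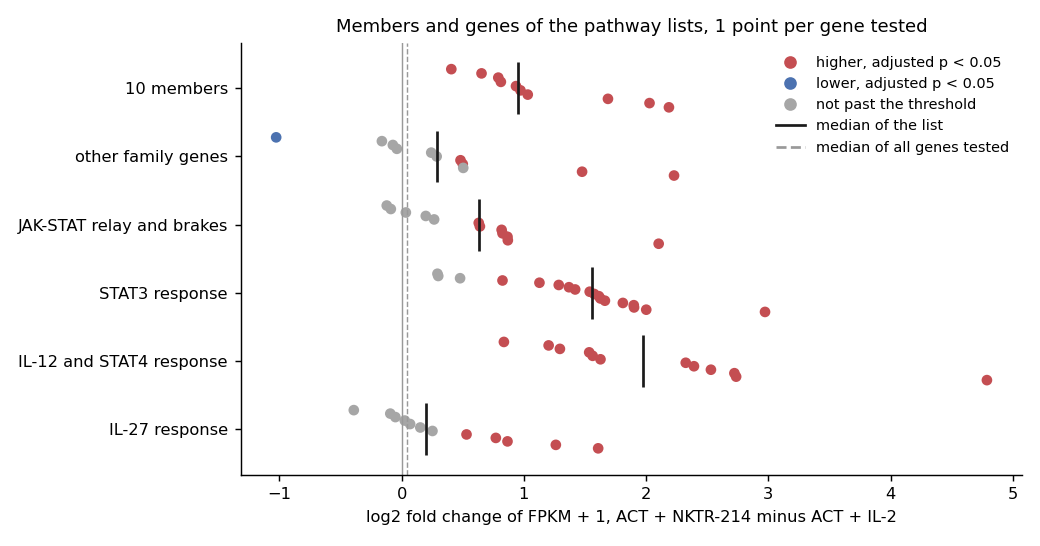
Log2 fold change of FPKM + 1 for each gene tested, ACT + NKTR-214 minus ACT + IL-2, for the 10 members and for 5 lists of the pathway. Red points are higher and blue points lower at an adjusted p under 0.05, gray points did not pass, black lines are medians and the dashed line is the median of all genes tested. The IL-12 and STAT4 response list has the highest median (1.98), and the IL-27 response list the lowest (0.20).

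The genes whose values over the 6 tumors lay nearest to those of a member were found by the root mean square difference of centred log2(FPKM + 1), among tested genes with a mean of at least 1 FPKM. It is given first for the 9 members without overlap. Among the ligands, the nearest genes were Ear2 and Ear12 for Lif (0.120 and 0.127), which are close copies of each other and may share reads. For Osm they were Abca1 and Cd82 (0.0648 and 0.0700), for Ebi3 Blnk and Trpm2 (0.0645 and 0.0709), and for Il6 Rnf113a2 and Panx1 (0.0513 and 0.0595). Among the receptor chains, Rhof and Klra5 were nearest to Il12rb2 (0.0892 and 0.0990) and Arhgef19 and Ypel5 to Il12rb1 (0.0773 and 0.0792). Il6ra lay nearest to Pdgfra and Gas1 (0.0622 and 0.0656), Osmr to Col20a1 and Synpo (0.0351 and 0.0360) and Il6st to Dhdh and 1600014C10Rik (0.0455 and 0.0492). For Il27, whose groups overlap, the nearest were Igfbp5 and Nlrp3, both at 0.188. Between members, the closest pair was Il6st and Osmr (0.0654). Lif and Il12rb2, the members with the largest differences, lay 0.255 apart.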

How the data were processed

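Whole-tumor RNA from 3 ACT + IL-2 and 3 ACT + NKTR-214 mice was sequenced as 50-base single-end reads. The authors mapped them to GRCm38 with HISAT2 2.0.4, obtained gene counts with HTSeq and deposited them as FPKM, on a linear scale. The gene annotation and the strand setting are not given in the sources used here. All 6 columns were used.

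The limma package, version 3.58.1 (R 4.3.3; lmFit, then eBayes with intensity trend) was run on log2(FPKM + 1) over genes with a mean of at least 0.1 FPKM, with Benjamini-Hochberg adjustment over all of them. Fold changes are ACT + NKTR-214 minus ACT + IL-2. The mice are different animals, so no block was used. On simulated data, 200 of 200 changed genes and 9 unchanged genes were called among 14172. The planted changes were larger than those of several members, such as Il6 and Osmr, and the noise held no shifts shared by a whole tumor. The simulation therefore does not give the power or error rate for smaller changes or for such shifts. Read counts and depths were recomputed from the FPKM steps. A simulation of 2500 genes recovered 2256, of which 2204 had all counts right.

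Every member is named, whatever its value. Some genes of the other lists are not reported here. Of each pathway list, the called genes with the 3 largest and 3 smallest fold changes and the direct partners of members are named. The members and lists were chosen with earlier results of these data known. Positions are from GENCODE vM21 and promoters from RefSeq. The alternatives tried were a minimum mean of 1 FPKM or none, a pseudocount of 0.1, 75th percentile scaling, quantile normalization, no trend, a replicate block, each tumor left out and 2 voom fits on the recovered reads. Python 3.11.15, pandas 2.3.3, scipy 1.17.1 and matplotlib 3.10.9 were used.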

Additional observations from a re-analysis of the deposited data

How the results depend on the processing

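The direction of the 10 members held under all alternatives that gave a value (a minimum mean of 1 FPKM leaves Il6 without one). Fits that left out 1 tumor called 6 to 10 members higher, with 6 in the fit without ACT + IL-2 replicate 2, where Il6ra, Ebi3, Il6 and Il27 were lost. Il6 and Il27 were also lost with 75th percentile scaling, quantile normalization, no minimum, no trend and the voom fits on recovered reads, the latter chosen after seeing the data. Their adjusted p-values in limma ran from 0.0719 to 0.188 and from 0.070 to 0.259 in these fits. Over all genes, the balance of higher and lower calls changed with the scaling and with the tumors used. The count of lower genes was 1173 as reported, 3709 with 75th percentile scaling, 4549 with quantile normalization and 3283 with voom scaled to reads in listed genes, and 636 to 1996 with 1 tumor left out (636 without ACT + IL-2 replicate 3, 680 without ACT + NKTR-214 replicate 2 and 1996 without ACT + IL-2 replicate 2). Higher genes made up 71.5%, 46.8%, 37.0% and 50.1% of the calls in the first 4 of these, and 50.1% without ACT + IL-2 replicate 2 (2005 higher). The median over all genes was at a log2 fold change of 0.05 as reported and of -0.10 after quantile normalization. The cause was not tested. With the replicate number as a block, the 10 members stayed called and 3090 genes were higher and 1227 lower. The sample labels state no pairing of the mice. Deviations of same-numbered tumors correlated at -0.206, -0.0667 and 0.396, which with 3 tumors per group can neither show nor exclude a pairing. The subunit ratios moved by less than the spread between tumors when a tumor was left out, but the log2 difference of Ebi3 to Il27 (0.21) turned to -0.15 without ACT + NKTR-214 replicate 2 and was 0.50 without replicate 1 of that group. The ratios were not recomputed with quantile normalization. Il6 and Il27 had the fewest reads of the members over the 6 libraries, with 4 to 28 and 7 to 60 reads per library.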
